A study of Mus musculus with 7 samples.

Results

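Rsrc1 and 9 other genes of SR-related proteins and SR protein kinases were followed in mouse light zone germinal centre B cells with and without MIZ1. The 10 genes are Rsrc1, Rsrc2, Srrm1, Srrm2, Srek1, Luc7l, Luc7l2, Luc7l3, Clk1 and Clk4, out of 48795 gene identifiers in the count table, and all 10 were among the 11618 genes that passed the filter on low counts. Rsrc1 was chosen by its large difference between MIZ1KO and Control in these same libraries, and the other 9 were listed beside it by their function with results of that comparison known. The values of the 10 genes are therefore given as a description, with no p-value.

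All mice, MIZ1KO and Control, had received sheep red blood cells by vein 10 days before their spleens were taken for the sort. The 3 MIZ1KO libraries carry titles with MizFF and the 4 Control libraries carry titles with eYFP. The sources used here give neither the recombinase, nor the promoter that drives it, nor the age of the mice. Whether the libraries stem from separate mice is not stated, and p-values then reflect only how far these samples spread, which may be technical. In bulk RNA, fewer cells of a type and less RNA per cell cannot be told apart.

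SR proteins and SR-related proteins carry stretches rich in arginine and serine, and through them they help the spliceosome to recognise exons and to pair splice sites. Their phosphorylation by the CLK and SRPK kinases controls where in the nucleus they lie, with nuclear speckles as their store. Many genes of this group also regulate their own transcripts through retained introns and through exons that send the transcript to nonsense-mediated decay, so that part of their RNA stays in the nucleus. B cells change their splicing as they are activated and divide in the germinal centre.

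Library totals ran from 6896673 to 9482453 estimated counts, of which 3087992 to 5085019 lay outside ribosomal RNA models. Zbtb17, the gene of MIZ1, averaged 4.45 ± 0.732 CPM in the 3 MIZ1KO libraries and 4.18 ± 1.89 CPM in the 4 Control libraries (mean ± SD, as for all such pairs that follow). Since the counts cover the whole gene and may take in transcript outside a deleted part, this level does not check the genotype labels. Transcript models of the GENCODE class TEC, which await experimental testing, took, of all counts that were not ribosomal, 0.544%, 0.603% and 0.923% in MIZ1KO replicates 1 to 3, and 1.02%, 1.62%, 2.58% and 1.95% in Control replicates 1 to 4. Malat1, a nuclear RNA of the speckles, took 0.256%, 0.311% and 0.490% in MIZ1KO and 0.687%, 1.11%, 1.52% and 1.29% in Control. In each share the MIZ1KO libraries all lay below the Control libraries, with an exact two-sided permutation p of 0.0571, the smallest p that 3 against 4 libraries allow, and 0.0571 adjusted over the 2 shares. Both shares were chosen with their difference between the groups known, so these p-values describe them and are no test. Germinal centre B cell markers summed to between 2134 and 2378 CPM in MIZ1KO and between 1897 and 2634 CPM in Control, and all 8 had counts. The sums hide members that went opposite ways. Cd79a averaged 669 CPM in MIZ1KO and 368 CPM in Control, and Ms4a1, with overlapping groups, 842 and 1110 CPM. The MIZ1KO libraries all lay above the Control libraries in 3 of the 8, Cd79a, Bcl6 and Mef2b, and all below in 1, Fas. Of all genes tested 19.5% were separated in either direction. Of the 8 only Cd79a passed an adjusted p of 0.05 in edgeR, where 5.96% of all genes did. The 6 T cell markers summed to 1.72 to 16.9 CPM in MIZ1KO and 0.131 to 1.56 CPM in Control. The 5 naive or follicular B cell markers summed to 346 to 415 CPM in MIZ1KO and 292 to 338 CPM in Control. In MIZ1KO and Control the 5 plasma cell markers summed to 177 to 255 and 205 to 377 CPM, and the 5 myeloid markers to 5.91 to 23.0 and 7.12 to 12.1 CPM. The 4 erythroid markers summed to 35.5 to 371 CPM in MIZ1KO and 72.3 to 285 CPM in Control. The 6 light zone markers summed to 618 to 729 and 558 to 868 CPM, and the 6 dark zone markers to 464 to 543 and 384 to 543 CPM. No marker of these lists was at 0 in all libraries, no T cell marker was high enough to be tested, and the part of these levels in the results was not tested.

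Rsrc1 encodes an arginine- and serine-rich coiled-coil protein that interacts with splicing factors at the 3′ splice site. It was measured at 0.430, 2.498 and 3.70 CPM in MIZ1KO replicates 1 to 3, and at 24.0, 28.6, 31.8 and 22.4 CPM in Control replicates 1 to 4. CPM are counts scaled to the TMM-adjusted library total. The lowest Control library lay far above the highest MIZ1KO library, and MIZ1KO replicate 1 lay below the other MIZ1KO libraries. The values rested on 4, 25 and 23 counts in MIZ1KO and on 183, 184, 242 and 223 counts in Control. The mean was 2.21 ± 1.65 CPM in MIZ1KO and 26.7 ± 4.30 CPM in Control, so that 8.28% of the Control level was left. The log2 fold change, MIZ1KO over Control throughout, was -3.68 ± 0.43 (SE, edgeR), the 26th most negative of all genes tested and the 8th among the protein-coding ones. On the authors' deposited log2 values, the group means were 5.45 in MIZ1KO and 7.18 in Control. That scale is compressed at low levels. Its group difference had a median of 27.4% of the log2 fold change over the 227 called genes under 10 CPM, and of 68.5% over the 61 above 100 CPM.

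In GRCm38 the gene model of Rsrc1 (ENSMUSG00000034544) spans 377007 bases on the plus strand of chromosome 3, from 66981390 to 67358396, while the longest of the other 9 genes spans 58137 bases. Among tested protein-coding genes, 0.978% were longer. Its first 382 bases overlap Shox2, a homeobox gene on the opposite strand, and a small nuclear RNA model, Gm22295, lies inside it on the same strand. Both had 0 counts in every library. Of the 33 annotated genes within 1 Mb of Rsrc1, 26 had no counts, 4 had too few to be tested and 3 were tested. Gfm1, a mitochondrial translation elongation factor, averaged 20.1 ± 5.50 CPM in MIZ1KO and 15.4 ± 0.689 CPM in Control, with a log2 fold change of 0.38 ± 0.28 and an adjusted p of 0.417 (edgeR). Mfsd1, a lysosomal transporter, had a log2 fold change of 0.01 ± 0.23 (adjusted p = 0.992, edgeR) and Lxn, latexin, an inhibitor of carboxypeptidases, 0.73 ± 0.38 (adjusted p = 0.244, edgeR). In edgeR 0 of the 3 passed, also 0 at an unadjusted p under 0.05, and 0 in DESeq2 and limma-voom, and none of their fold changes lay below 0.

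RefSeq gives Rsrc1 a pair of start sites in GRCm38.p6, at 66985662 and 66985967. The nearer one lies 3891 bases from the 5′ end of the Shox2 model, which is on the minus strand. The windows from 250 bases before to 50 bases after each start are shown because Rsrc1 differs most among the 10 genes, with the window of Clk4, the kinase gene with the next largest difference. Capitals mark CCAAT, read on either strand, in the windows of Rsrc1 and TGACGTCA, the palindromic site of the CREB and ATF factors, in that of Clk4.
Rsrc1 window 1, chr3:66985412-66985711, plus strand: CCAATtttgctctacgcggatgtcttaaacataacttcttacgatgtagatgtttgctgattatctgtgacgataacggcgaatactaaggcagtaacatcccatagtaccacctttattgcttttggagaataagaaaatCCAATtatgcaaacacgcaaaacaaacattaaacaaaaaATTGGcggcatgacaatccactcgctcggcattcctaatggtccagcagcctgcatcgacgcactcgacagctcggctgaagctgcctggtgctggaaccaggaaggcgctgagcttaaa
Rsrc1 window 2, chr3:66985717-66986016, plus strand: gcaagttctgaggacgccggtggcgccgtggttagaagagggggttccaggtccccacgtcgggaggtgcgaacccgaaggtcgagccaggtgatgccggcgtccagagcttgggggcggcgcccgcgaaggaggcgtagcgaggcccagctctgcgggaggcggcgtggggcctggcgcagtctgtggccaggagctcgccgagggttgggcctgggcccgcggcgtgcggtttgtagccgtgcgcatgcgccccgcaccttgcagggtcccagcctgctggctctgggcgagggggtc
Clk4 window, chr11:51262864-51263163, plus strand: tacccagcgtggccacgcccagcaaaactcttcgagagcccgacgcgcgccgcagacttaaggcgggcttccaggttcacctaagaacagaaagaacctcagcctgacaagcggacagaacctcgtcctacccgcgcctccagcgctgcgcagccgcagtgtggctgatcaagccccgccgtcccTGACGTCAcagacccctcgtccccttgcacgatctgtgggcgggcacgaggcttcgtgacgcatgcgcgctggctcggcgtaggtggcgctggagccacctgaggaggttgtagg
The windows of Rsrc1 differ in composition, with a GC content of 44.7% in window 1 and 72.7% in window 2, against a median of 52.7% over 32851 RefSeq promoter windows. Window 1 holds CCAAT 3 times, first base at -250, -109 and -70 from the start and the last of them on the minus strand, and window 2 holds none. CCAAT on either strand occurs in 37.4% of all windows. Of the 10 windows available for 8 of the genes, 4 hold it, those of Rsrc1, Rsrc2, Srrm1 and Luc7l2. TGACGTCA occurs in 1.79% of all windows and here in that of Clk4, at -65. The E-box CACGTG, which MYC and MAX bind, occurs in 7.15% of all windows and in 0 of these 10. ATCGAT, a 6-letter form of the motif ascribed to MIZ1 itself, occurs in 0.925% of all windows and in 0 of these 10. A match is a run of letters, not a shown site.

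**Figure D1:**
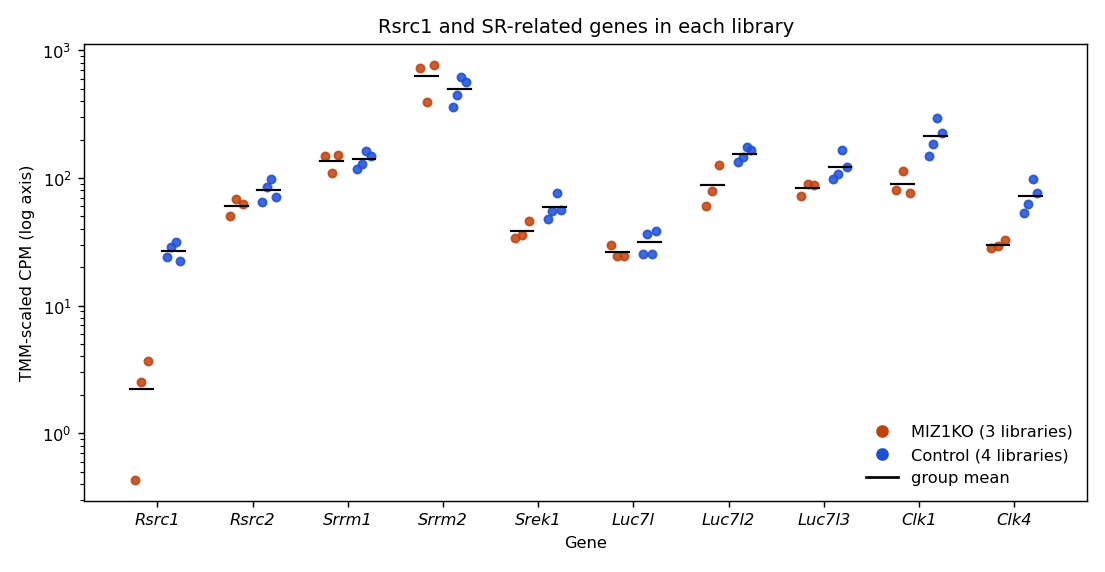
TMM-scaled CPM of Rsrc1 and the 9 SR-related genes in each library, on a log axis, with MIZ1KO (3 libraries) left of Control (4 libraries) for each gene and bars at the group means. Rsrc1 lies between 0.430 and 3.70 CPM in MIZ1KO and between 22.4 and 31.8 CPM in Control, and the points of Srrm1, Srrm2, Luc7l and Rsrc2 overlap between the groups.

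Clk1 and Clk4 encode dual-specificity kinases that phosphorylate SR proteins, and both were lower in MIZ1KO. Clk1 was measured at 80.6, 114 and 76.4 CPM in MIZ1KO and at 148, 183, 293 and 227 CPM in Control. Clk4 was measured at 28.2, 29.1 and 32.8 CPM in MIZ1KO and at 52.9, 63.0, 98.4 and 75.8 CPM in Control. In both genes the groups did not overlap, Control replicate 3 was the highest library and Control replicate 1 the lowest of the Control libraries. The log2 fold changes were -1.23 ± 0.25 for Clk1 and -1.28 ± 0.24 for Clk4 (SE, edgeR), which left 42.6% and 41.4% of the Control level. Clk1 (ENSMUSG00000026034) lies on chromosome 1 from 58410189 to 58424066 and Clk4 (ENSMUSG00000020385) on chromosome 11 from 51261730 to 51281766. The model of Clk4 overlaps BC049762 on the opposite strand, which had 2 counts in MIZ1KO replicate 1 and 0 in the other libraries. It also holds the small RNA model Gm25082, at 0.505 ± 0.696 CPM in MIZ1KO and 0.757 ± 0.629 CPM in Control.

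The 3 LUC7-like genes encode proteins that resemble the yeast U1 snRNP component Luc7, which helps to choose 5′ splice sites, and all 3 log2 fold changes lay below 0. Differences among the 3 were not tested. Luc7l2 was measured at 60.3, 79.2 and 125 CPM in MIZ1KO and at 135, 145, 174 and 167 CPM in Control. The groups did not overlap, although MIZ1KO replicate 3 came close to Control replicate 1, and the log2 fold change was -0.82 ± 0.24 (SE, edgeR). Luc7l3 was measured at 72.8, 89.5 and 88.6 CPM in MIZ1KO and at 98.0, 107, 165 and 122 CPM in Control. Its groups did not overlap either, and its log2 fold change of -0.56 ± 0.21 (SE, edgeR) did not pass over all genes. Luc7l was measured at 29.8, 24.7 and 24.6 CPM in MIZ1KO and at 25.6, 36.4, 25.3 and 38.1 CPM in Control, overlapping values with a log2 fold change of -0.25 ± 0.24. Luc7l2 (ENSMUSG00000029823, chromosome 6, 38551334 to 38609470) overlaps the opposite-strand lincRNA Gm26699, which fell by 2.11 on the log2 scale (adjusted p = 0.0323, edgeR), with 4.60 ± 2.73 CPM in MIZ1KO and 19.96 ± 11.5 CPM in Control and overlapping ranges. This call was lost without MIZ1KO replicate 1 or 3 and without Control replicate 2, 3 or 4 (adjusted p = 0.0591 to 0.175, edgeR). With all libraries it was also lost in limma-voom (adjusted p = 0.147) and on the deposited log2 values (adjusted p = 0.0633, limma). The sources used here do not give the strand setting of the counting, so reads of the overlap cannot be assigned with certainty. With the TEC share as a covariate the log2 fold change of Gm26699 turned to 0.40 (adjusted p = 0.853, edgeR). Luc7l (ENSMUSG00000024188, chromosome 17, 26252896 to 26285504) holds a processed pseudogene, Gm16580, on its own strand, with a log2 fold change of -0.39 ± 0.42 (adjusted p = 0.611, edgeR). How reads shared among near-identical copies were divided is likewise unknown here.

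Srek1, which encodes a regulatory SR-related protein that binds other SR proteins, was measured at 34.1, 35.9 and 45.7 CPM in MIZ1KO and at 47.9, 55.5, 76.5 and 56.3 CPM in Control. The groups did not overlap, although MIZ1KO replicate 3 came close to Control replicate 1, and the log2 fold change was -0.62 ± 0.22 (SE, edgeR), short of the threshold over all genes. Rsrc2, which is named after its arginine- and serine-rich coiled-coil sequence as Rsrc1 is, was measured at 49.97, 68.4 and 62.7 CPM in MIZ1KO and at 65.1, 85.4, 97.8 and 71.4 CPM in Control. MIZ1KO replicate 2 lay above the lowest Control library, and the log2 fold change was -0.40 ± 0.21. Srek1 (ENSMUSG00000032621) lies on chromosome 13 from 103739348 to 103774608 and Rsrc2 (ENSMUSG00000029422) on chromosome 5 from 123728426 to 123749414.

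Srrm1 and Srrm2 encode the large serine- and arginine-rich matrix proteins, coactivators of splicing, and SRRM2 is a scaffold of nuclear speckles. Srrm2 was measured at 732, 394 and 771 CPM in MIZ1KO and at 361, 444, 619 and 562 CPM in Control. MIZ1KO replicate 2 lay within the Control range and the other MIZ1KO libraries above it, with a log2 fold change of 0.35 ± 0.27 (SE, edgeR), the only one of the 10 above 0. Srrm1 was measured at 149, 109 and 152 CPM in MIZ1KO and at 118, 129, 162 and 149 CPM in Control, and its log2 fold change of -0.03 ± 0.20 lay within its error of 0. For neither gene does an unpassed threshold show that the genotypes are alike. Srrm1 (ENSMUSG00000028809) lies on chromosome 4, the chromosome of Zbtb17, from 135320484 to 135353321. Srrm2 (ENSMUSG00000039218) lies on chromosome 17 from 23790532 to 23824741 and touches Elob on the opposite strand at its last bases. Elob had a log2 fold change of 0.60 ± 0.32 (adjusted p = 0.252, edgeR).

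Of the 10 genes, 4 passed an adjusted p of 0.05 over all genes in edgeR, namely Rsrc1, Clk1, Clk4 and Luc7l2, and all 4 were lower in MIZ1KO. The call of Luc7l2 was lost in 9 of 16 alternatives, among them DESeq2 size factors in edgeR, no filter and leaving out MIZ1KO replicate 1 or 2 or Control replicate 2, 3 or 4. Clk1 was not called without MIZ1KO replicate 1 or 3, nor Clk4 without MIZ1KO replicate 1. In the same fit 5.96% of the 11618 genes passed in either direction, 4.05% lower and 1.9% higher. None of the 10 was called higher, also at an unadjusted p under 0.05, in DESeq2 or in limma-voom. In 6 of the 10 the MIZ1KO libraries all lay below the Control libraries, where 10.8% of all genes did so and 19.5% were separated in either direction. Below 0 lay 9 of the 10 log2 fold changes and 52.3% of those of all genes. All 10 genes are protein-coding. Of the 9812 protein-coding genes tested, 202 were called lower and 204 higher, and 47.5% of their log2 fold changes lay below 0. The median was -0.59 over the 10 genes, -0.56 over the 9 without Rsrc1, -0.03 over all genes tested and 0.03 over the protein-coding ones. As the 10 genes were chosen with this comparison known, these counts describe them and are no test. Without MIZ1KO replicate 1 only Rsrc1 of the 10 passed, and without Control replicate 1 Srek1 and Luc7l3 passed as well, giving 6. Calls over all genes moved the same way, from 692 with all libraries to 39 without MIZ1KO replicate 1. They rose above 692 without Control replicate 1, so these losses and gains were not particular to the 10 genes.

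Set per kilobase of exonic sequence, so that genes of unlike length can be compared, Srrm2 was the most abundant of the 10 and Rsrc1 the least in both genotypes. Srrm2 reached 49.3 ± 16.1 CPM per kilobase in MIZ1KO and 38.7 ± 9.04 in Control. Rsrc1 reached 0.184 ± 0.138 CPM per kilobase in MIZ1KO and 2.22 ± 0.358 in Control, and its range overlapped that of no other of the 10 in either genotype. Clk1 stood 4th in MIZ1KO, at 11.1 ± 2.56 CPM per kilobase, and 2nd in Control, at 26.1 ± 7.68. In Control the ranges of all neighbours in the order from Srrm2 through Clk1, Srrm1, Luc7l3, Luc7l2, Clk4 and Rsrc2 to Srek1 overlapped. Within single Control libraries the order was steadier: each gene lay above the next in all 4 libraries, except Srrm1 over Luc7l3 and Luc7l2 over Clk4, which held in 3 of 4. In MIZ1KO the order ran from Srrm2 through Srrm1, Luc7l3, Clk1, Rsrc2, Luc7l2, Clk4 and Srek1 to Luc7l and Rsrc1, where Srrm2, Srrm1, Clk1 and Luc7l did not overlap the next gene and the other neighbours did.

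The annotation gives the 10 genes many transcript models. In GENCODE vM21 all 10 have a model classed as retained intron, as have 62.3% of the 9812 tested protein-coding genes, and 9 have a model classed for nonsense-mediated decay, against 31.1%. Rsrc1 is the one with none of the second kind. The median was 12.5 transcript models over the 10 genes and 5 over the tested protein-coding genes, while the median exonic length was 8152 and 4615 bases. Clk1 and Clk4 have 7 retained-intron models each, the most of the 10. The deposited counts are per gene and do not tell spliced from intron-holding transcripts.

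In the Control group the libraries at the ends of the TEC range were also those at the ends of most of these genes. Control replicate 3 had the highest TEC share, 2.58%, and also the highest Control value of 9 of the 10 genes, all but Luc7l, where 29.2% of all genes tested had their highest Control value in that library. Control replicate 1 had the lowest TEC share of the Control libraries, 1.02%, and the lowest Control value of 8 of the 10, all but Rsrc1 and Luc7l, against 30.5% of all genes. MIZ1KO replicate 3, at 0.923%, stood next to Control replicate 1 in TEC share. Within MIZ1KO the genes did not all follow that order, as Clk1 was lowest in replicate 3, where the TEC share was highest. Across that narrow gap Rsrc1 was at 3.70 and 24.0 CPM, Clk1 at 76.4 and 148 CPM, and Clk4 at 32.8 and 52.9 CPM in MIZ1KO replicate 3 and Control replicate 1, while Luc7l2 was at 125 and 135 CPM and Srek1 at 45.7 and 47.9 CPM. These are single libraries and carry no test.

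**Figure D2:**
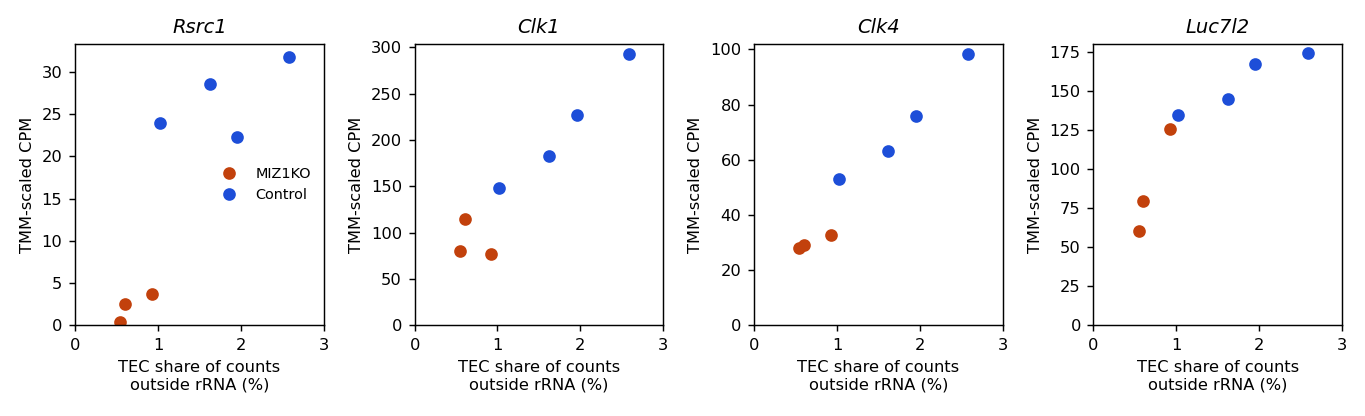
TMM-scaled CPM of Rsrc1, Clk1, Clk4 and Luc7l2 (y axes) against the TEC share of the counts outside ribosomal RNA in percent (x axes), one point per library, MIZ1KO and Control in separate colours. Between MIZ1KO replicate 3 at 0.923% and Control replicate 1 at 1.02%, Rsrc1 lies at 3.70 CPM in MIZ1KO and 24.0 CPM in Control, while Luc7l2 lies at 125 CPM in MIZ1KO and 135 CPM in Control.

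With the log2 TEC share as a covariate in the edgeR fit, 1 of the 10 genes passed, Rsrc1, where 2.56% of all genes passed in either direction. The log2 fold change of Rsrc1 was then -3.20 ± 0.63 (SE). Those of Clk1 and Clk4 were -0.50 ± 0.36 and -0.45 ± 0.32, and that of Luc7l2 was -0.14 ± 0.30. Srek1, Luc7l3 and Rsrc2 came to 0.05 ± 0.32, 0.10 ± 0.29 and 0.07 ± 0.32, Srrm1 to 0.40 ± 0.29 and Srrm2 to 1.12 ± 0.36. Luc7l, at -0.25 ± 0.44, kept its fold change. The median of the 10 was -0.04 in this fit and that of all genes -0.06. Since the TEC share did not overlap between the groups, its part and that of the genotype cannot be told apart.

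**Figure D3:**
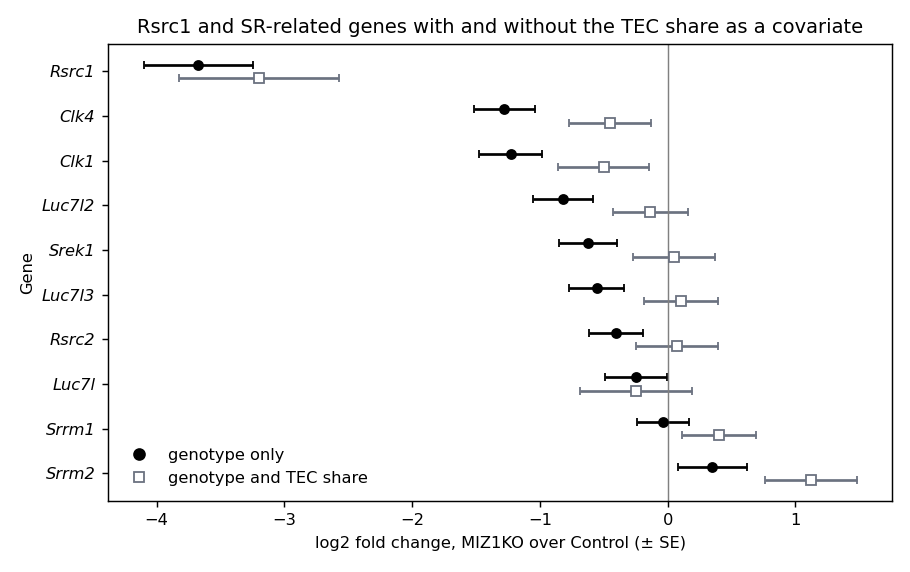
Log2 fold change of MIZ1KO over Control for the 10 genes (x axis) with its SE, from the edgeR fit with genotype only (filled circles) and with the log2 TEC share added (open squares). Rsrc1 stays near the far left, at -3.68 and -3.20, while Clk4 lies at -1.28 and -0.45 and Clk1 at -1.23 and -0.50.

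Of 43 other genes of SR-related and RS-domain proteins, 40 were tested, and 5 fell and 1 rose in MIZ1KO, where 4.05% of all genes tested fell and 1.9% rose. Tra2a, a paralog of the transformer-2 splicing regulator, was at 65.1 ± 4.32 CPM in MIZ1KO and 127 ± 12.6 CPM in Control, with a log2 fold change of -0.96 ± 0.19 (adjusted p = 0.0138, edgeR). Zrsr2, which recognises the 3′ splice site of minor introns, was at 9.93 ± 1.91 CPM in MIZ1KO and 26.5 ± 5.80 CPM in Control, with a log2 fold change of -1.43 ± 0.29 (adjusted p = 0.0145, edgeR). Ccnl1, a cyclin with an RS domain, fell by 0.92 (adjusted p = 0.0265, edgeR), Arglu1, an arginine- and glutamate-rich splicing modulator, fell by 0.89 (adjusted p = 0.0387, edgeR), and Rbm25, which acts in 5′ splice site choice, fell by 0.80 on the log2 scale (adjusted p = 0.0421, edgeR). U2af1l4, a relative of the small U2AF subunit, rose, with 7.89 ± 1.53 CPM in MIZ1KO and 2.15 ± 1.35 CPM in Control and a log2 fold change of 1.89 ± 0.48 (adjusted p = 0.0322, edgeR). Over the 40 the MIZ1KO libraries all lay below the Control libraries in 8 and above them in 5, the 6 called genes among these. Of all genes tested 10.8% lay below and 19.5% were separated in either direction. Of the 16 alternatives, Rbm25 lost its call in 12, Arglu1 in 9, Ccnl1 and U2af1l4 in 7 each, and Tra2a and Zrsr2 in 3 each. The median log2 fold change of the 40 was -0.11, with 23 below 0, beside -0.03 over all genes. At an unadjusted p under 0.05 in edgeR, 10 of the list were lower in MIZ1KO and 7 higher. DESeq2 called 6 lower and 3 higher, and limma-voom 3 lower and 1 higher. Without MIZ1KO replicate 1, without Control replicate 4 or with the TEC share as a covariate 0 of the list passed. Over all genes 39, 142 and 297 passed in these fits. Zrsr2 and Tra2a passed without Control replicate 2 and without Control replicate 3, and those and U2af1l4 without MIZ1KO replicate 3. Without MIZ1KO replicate 2 Rbm25, Ccnl1 and U2af1l4 were lost. In that fit Dhx8 and Cherp were gained, both higher in MIZ1KO, with log2 fold changes of 1.19 and 1.06. A total of 11 genes passed without Control replicate 1. Those gained there were Pnn, Nktr, Prpf38b and Ccnl2, all lower, and U2af2, higher.

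Among the other SR protein kinases and the importins of SR proteins, 0 of 10 passed in edgeR, 1 at an unadjusted p under 0.05, and 0 in DESeq2 and limma-voom. Over all genes 5.96% passed, and 24.6% had an unadjusted p under 0.05. The other CLK genes were Clk2, at 18.9 ± 3.10 CPM in MIZ1KO and 19.6 ± 6.15 CPM in Control, and Clk3, at 17.4 ± 2.92 CPM in MIZ1KO and 13.8 ± 5.04 CPM in Control. Their log2 fold changes of -0.07 ± 0.29 (adjusted p = 0.919, edgeR) and 0.30 ± 0.32 (adjusted p = 0.61, edgeR) did not pass. Srpk3, Srpk2, Tnpo3 and Cdk11b, which had the smallest p of the list, had log2 fold changes of -0.60 ± 0.25, -0.44 ± 0.23, -0.38 ± 0.24 and 0.35 ± 0.25 (adjusted p = 0.143, 0.236, 0.338 and 0.411, edgeR). The difference between the fold changes of Clk1 or Clk4 and those of the other kinases was not tested.

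Of 7 tested genes of U1 snRNP proteins and their partners, Snrpa rose and Tia1 fell, where 5.96% of all genes passed in either direction. Snrpa, the U1-A protein, was at 73.0 ± 15.3 CPM in MIZ1KO and 40.9 ± 8.24 CPM in Control, with a log2 fold change of 0.83 ± 0.22 (adjusted p = 0.0365, edgeR). Tia1, which helps U1 to bind weak 5′ splice sites, was at 44.5 ± 11.7 CPM in MIZ1KO and 82.7 ± 19.2 CPM in Control, with a log2 fold change of -0.88 ± 0.24 (adjusted p = 0.0372, edgeR). Prpf39 had a log2 fold change of -0.63 ± 0.28 (adjusted p = 0.167, edgeR) and Snrnp70, the U1-70K protein, one of -0.27 ± 0.21 (adjusted p = 0.467, edgeR). Both calls were lost without MIZ1KO replicate 1 or 3 and without Control replicate 2, 3 or 4. With the TEC share as a covariate, and in limma-voom, 0 of the 7 passed.

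Of the 10 tested genes of the SRSF family, the classical SR proteins, 0 passed in edgeR, 1 at an unadjusted p under 0.05, and 0 in DESeq2 and limma-voom. In edgeR 5.96% of all genes passed and 24.6% had an unadjusted p under 0.05. Srsf4, Srsf9, Srsf3 and Srsf11 had the smallest p, with log2 fold changes of 0.76 ± 0.27, 0.49 ± 0.25, -0.48 ± 0.28 and -0.34 ± 0.20 (adjusted p = 0.0901, 0.235, 0.3 and 0.305, edgeR). The family's median was -0.16. With the TEC share as a covariate 2 passed, Srsf7 at -1.43 (adjusted p = 0.0317, edgeR) and Srsf3 at -1.35 (adjusted p = 0.0369, edgeR), and the median was -0.48. With a replicate block, which left out Control replicate 4, Srsf4 passed, at 1.02 (adjusted p = 0.0349, edgeR). Here the highest Control value fell in Control replicate 3 for 1 of the 10, against 9 of the 10 for Rsrc1 and the SR-related genes. It fell there for 23 of the 40 tested other SR-related genes and for 6 of the 10 SR kinases and importins. The same held for 4 of the 7 tested U1 snRNP genes and for 29.2% of all genes tested.

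**Figure D4:**
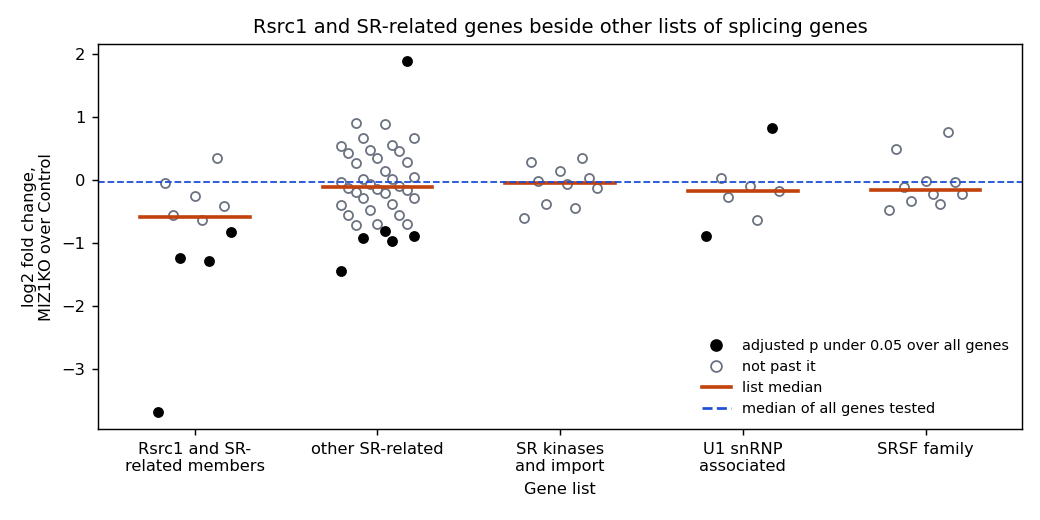
Log2 fold change of MIZ1KO over Control (y axis) for each tested gene of Rsrc1 and the SR-related genes and of 4 other lists of splicing genes, filled where the adjusted p over all genes was under 0.05, with list medians as bars and the median of all genes as a dashed line. Rsrc1 lies apart from all other points at -3.68, and the SR kinase list and the SRSF family hold no filled point.

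Of 3 nuclear non-coding RNAs, Malat1 and Xist fell in MIZ1KO, where 4.05% of all genes tested fell. The group difference of Malat1 was known when it was chosen, so its p-values here describe it and are no test. Malat1 was at 1754 ± 612 CPM in MIZ1KO and 5562 ± 1320 CPM in Control, with a log2 fold change of -1.67 ± 0.34 (adjusted p = 0.0150, edgeR). Xist had a log2 fold change of -1.59 ± 0.37 (adjusted p = 0.0218, edgeR) and Neat1, the RNA of paraspeckles, -1.11 ± 0.33 (adjusted p = 0.0544, edgeR). With the TEC share as a covariate neither call held, the log2 fold change of Malat1 being -0.61 (adjusted p = 0.346, edgeR) and that of Xist -0.35 (adjusted p = 0.711, edgeR). The call of Malat1 was also lost without MIZ1KO replicate 1 and without Control replicate 4, and that of Xist without any one of the MIZ1KO libraries and without Control replicate 2 or 4. All 3 log2 fold changes were smaller in size than that of Rsrc1.

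Over the 7 libraries Gne, Lrrc18, Vamp4 and Slc25a20 were among the 5 genes whose pattern was most like that of Rsrc1, out of 7839 protein-coding genes with a mean of at least 5 CPM. Likeness was the root-mean-square difference of log2 CPM after centring each gene between its group means, so a gene had to be lower in MIZ1KO to come near. It was 1.14 for Gne, an enzyme of sialic acid synthesis, 1.14 for Lrrc18, 1.15 for Vamp4, a SNARE of the trans-Golgi network, and 1.17 for Slc25a20, the mitochondrial carnitine carrier, with a median of 2.09 over all genes compared. Vamp4 was at 5.48, 10.8 and 4.34 CPM in MIZ1KO and at 35.8, 24.3, 26.5 and 36.2 CPM in Control. By group means none of these 4 was reduced as far as Rsrc1, their mean in MIZ1KO being 20.05% to 34.9% of Control. Gne, Lrrc18 and Slc25a20 averaged 1.80, 4.51 and 3.79 CPM in MIZ1KO, so they reached the mean of 5 CPM through Control. Gne rested on 6, 1 and 29 counts in MIZ1KO replicates 1 to 3. All 4 were called lower in edgeR. Of the 16 alternatives, Slc25a20 lost its call in 13, Gne in 7, Lrrc18 in 5 and Vamp4 in 0. On the deposited log2 values the order changed, with Vamp4 first, Gne 6th, Lrrc18 15th and Slc25a20 62nd, so that of these 4 only Vamp4 stayed among the 5 nearest.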

How the data were processed

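Bulk RNA sequencing libraries, 3 labelled MIZ1KO and 4 labelled Control, were compared. The authors deposited a table of expected counts, which are estimated counts per gene that need not be whole and are not normalised. They also deposited a table of log2 values across the 7 libraries, which the table's name calls vsd; the labels do not state the transform. STAR 2.5.2, RSEM 1.3.0, DESeq2 1.18.1, R 3.4.3 and GRCm38 are named per the submitters' processing notes, without roles. They give no annotation release or strand setting.

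Symbols, coordinates and exonic lengths came from GENCODE vM21 on GRCm38, and 48435 of 48795 identifiers matched a symbol. Of the values 6.61% were not whole, and counts were rounded. Genes were filtered with filterByExpr, libraries scaled by TMM, and MIZ1KO was compared with Control in edgeR 4.0.16 (R 4.3.3; robust quasi-likelihood test, legacy setting off), with Benjamini-Hochberg adjustment over 11618 genes at a threshold of 0.05. Standard errors were derived from the fold change and the F statistic. A prior count of 2 entered log2 CPM. CPM are relative to library totals that include ribosomal RNA. On data simulated for the comparison of MIZ1KO with Control, over 11112 genes, the fit recovered 83.2% of 4-fold and 32.6% of 2-fold changes. Alternatives were DESeq2 1.42.0, limma-voom and limma 3.58.1 on the log2 values, RLE scaling, no filter, the legacy fit, protein-coding genes only, a replicate block, the TEC share as a covariate and leaving out each library. The replicate block left out Control replicate 4, which has no MIZ1KO library of its number. No pair of libraries of a group agreed within sampling noise (chi-square per degree of freedom of at least 15.9), so each counted once.

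The members, the gene lists and the library shares were chosen with earlier results of these data known. Named genes were the 10 members, the 5 genes most like Rsrc1 (of which 1 is not reported here), up to 4 genes with the smallest p and all called genes of each list, tested genes within 1 Mb of Rsrc1 or overlapping a member, Zbtb17 and 3 nuclear RNAs. Clk2 and Clk3 were named after their values were seen. Promoter windows are from RefSeq (GRCm38.p6), found for 8 of the 10 members.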

Additional observations from a re-analysis of the deposited data

Results flagged for a closer look

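In the following genes 1 of the 4 Control libraries lay apart from the other 3 by a gap that took up most of the group's range. Chance does this in about 1 in 20 groups, and 95 genes and library shares were looked at. In Control replicate 3 Acin1 was at 75.9 CPM against 46.0 to 50.9 in the other Control libraries, Sfswap at 50.002 CPM against 30.4 to 31.7, and Clasrp at 10.499 CPM against 4.91 to 5.77. In Control replicate 1 Snrnp27 was at 23.1 CPM against 6.62 to 7.62, Snrpc at 20.99 CPM against 14.4 to 15.1, and Srsf5 at 225 CPM against 279 to 288. In Control replicate 4 Zbtb17 was at 7.02 CPM against 3.15 to 3.42. None of the 10 genes of the Rsrc1 and SR-related group had such a library.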

How the results depend on the processing

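Over 16 alternatives the log2 fold change of Rsrc1 lay between -4.13 and -1.73, the smallest size being that on the compressed deposited scale, and Rsrc1 passed in each. Luc7l, Luc7l2, Clk1 and Clk4 were below 0 and Srrm2 above 0 in all 17 fits. Rsrc2, Srek1 and Luc7l3 were below 0 in 16 of 17, all but the one with the TEC share, and Srrm1 in 11. The number of the 10 genes called was 1 with the TEC share as a covariate and 3 or 4 in the other alternatives with all libraries. It was 4 with the replicate block, which left out Control replicate 4. With one library left out and no block it ranged from 1 to 6. Luc7l2 was not called in 9 of the 16, Clk1 in 3 and Clk4 in 2. The other SR-related genes called numbered 0 with the TEC share and, leaving out one library, from 0 to 11. The number of genes called over all genes was 692, against 1120 in DESeq2, 342 in limma-voom, 315 among protein-coding genes only, 297 with the TEC share, and 39 to 1350 with one library left out, namely 39 without MIZ1KO replicate 1, 317 without MIZ1KO replicate 3, 1350 without Control replicate 1, and 205, 428 and 142 without Control replicates 2, 3 and 4. Gm26699 reversed with the TEC share (0.40). The causes of these changes were not tested.

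Both library shares kept their direction in all alternatives run for them, none of which could reach a p of 0.05. The replicate block, without Control replicate 4, gave 555 genes called over all genes, 4 of the 10 and 4 of the other SR-related genes. In their deviations from the group means, same-numbered libraries correlated at 0.0233, 0.0665 and 0.162, and the other pairs at -0.158 to 0.134. Deviations from means of 3 and 4 libraries are tied to each other. Whether the numbers pair the libraries therefore cannot be told from these values. Depth limits Rsrc1 most, with 4 counts in MIZ1KO replicate 1.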
